A study of Homo sapiens with 3 samples.

Results

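The genes described here are the NF-κB subunits, the proteins that hold NF-κB back, and the adhesion gene ICAM1, measured in 3 human cell lines. The 10 genes were named by symbol (NFKB1, NFKB2, RELA, RELB, REL, NFKBIA, NFKBIE, TNFAIP3, BIRC3 and ICAM1), and 9 of them were found among the 14410 genes that had a transcript cluster of their own on the exon arrays. BIRC3, which encodes an inhibitor of apoptosis, was not matched to a cluster and was not analysed here. HT-29, a colon adenocarcinoma line, was grown in McCoy's medium with 10% serum and received interferon gamma (IFN-γ) at 200 U/ml for 24 h. MDA-MB-436, a breast adenocarcinoma line, was grown in L-15 medium with 10% serum. MCF10A, a mammary epithelial line, was grown in DMEM/F12 with horse serum at 5%, and its medium also held insulin at 10 µg/ml, epidermal growth factor at 20 ng/ml, cholera toxin at 100 ng/ml and the glucocorticoid hydrocortisone at 500 ng/ml. The labels name no IFN-γ for the mammary lines. Each line was measured on 1 array, so there was no replicate spread, no test was possible, and the differences describe these 3 arrays. Untreated HT-29 cells were not part of the comparisons. Line, medium and cytokine therefore cannot be told apart wherever IFN-γ-treated HT-29 is compared with a mammary line. In MDA-MB-436 against MCF10A, line and medium cannot be told apart either. Basal medium and serum differed there, and the labels name hydrocortisone and the other additives for MCF10A only.

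NF-κB is a family of dimeric transcription factors built from 5 subunit genes, NFKB1, NFKB2, RELA, RELB and REL. In resting cells IκB proteins such as the products of NFKBIA and NFKBIE hold the dimers in the cytoplasm. Signals from tumor necrosis factor, interleukin 1 or microbial products activate the IKK kinases, which mark IκB for destruction and free NF-κB to enter the nucleus. Among the genes it then turns on are its own inhibitors, NFKBIA, NFKBIE and TNFAIP3, the last of which encodes a ubiquitin-editing enzyme. ICAM1, the surface ligand of leukocyte β2 integrins, is a textbook target of NF-κB and is also induced by IFN-γ.

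ICAM1 and TNFAIP3 differed widely between the lines, whereas the subunit genes and NFKBIE stayed close. ICAM1 was 34.3-fold higher in IFN-γ-treated HT-29 and 14.0-fold higher in MDA-MB-436 cells than in MCF10A. TNFAIP3 was 7.54-fold higher in MDA-MB-436 cells than in MCF10A, and 10.6-fold lower in IFN-γ-treated HT-29 than in MDA-MB-436. NFKBIA, another inhibitor gene, was lowest in HT-29 with IFN-γ, where it was 2.23-fold lower than in MCF10A. The largest fold between any 2 lines was 2.09 for NFKB2 among the 5 subunit genes.

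A gene was counted as higher or lower when its deposited intensities were at least 4-fold apart and the brighter array lay above a background of 29.9. The background is the 95th percentile over 228 genes of olfactory receptors, which are expressed mainly in olfactory tissue. In HT-29 with IFN-γ against MCF10A, 1 of the 9 genes was higher and 0 lower, where 6.14% of the 10174 genes above background were higher and 4.96% lower. In MDA-MB-436 against MCF10A, 2 were higher and 0 lower, where 5.10% of 10308 genes were higher and 2.81% lower. In HT-29 with IFN-γ against MDA-MB-436, 0 were higher and 1 lower, where 5.76% of 10531 genes were higher and 6.41% lower. The median log2 difference of the 9 genes was 0.43, 0.38 and 0.23 in these 3 comparisons, beside 0.01, -0.08 and 0.08 over all genes above background. The comparisons share arrays and are not independent of each other. With 1 or 2 of 9 genes counted, the group cannot be set apart from these shares. At a fold of 2, 1 gene was higher and 1 lower in HT-29 with IFN-γ against MCF10A (14.4% and 14.3% of all genes), 3 were higher and 0 lower in MDA-MB-436 against MCF10A (12.2% each), and 1 was higher and 2 lower in HT-29 with IFN-γ against MDA-MB-436 (15.8% and 15.0%).

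**Figure D1:**
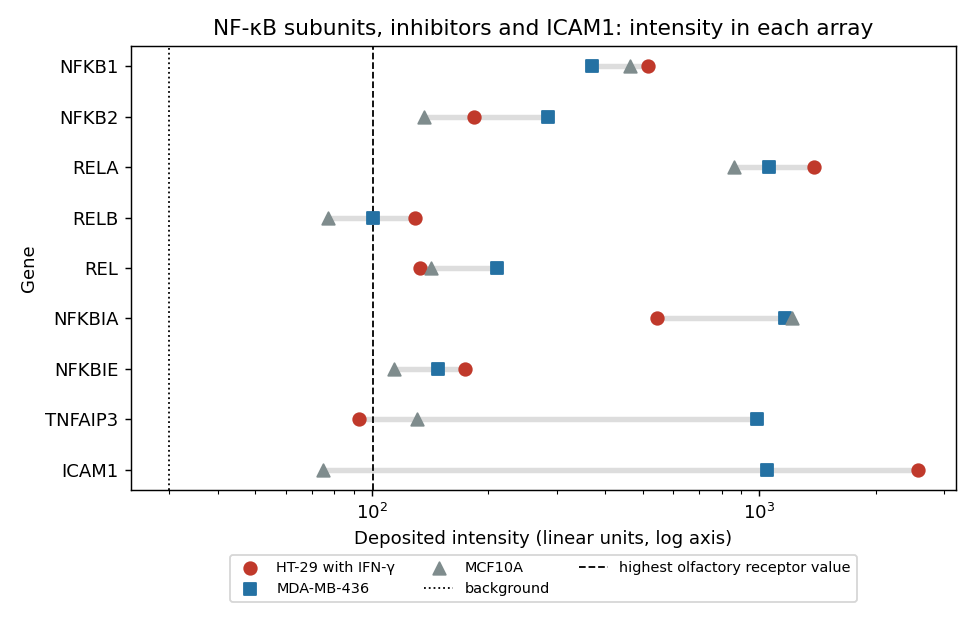
Deposited intensity (log axis) of the 9 measured genes in HT-29 with IFN-γ, MDA-MB-436 and MCF10A, 1 point per array, with the background of 29.9 (dotted) and the highest olfactory receptor value of 101 (dashed). The 3 points of ICAM1 lie at 2569, 1049.9 and 74.9 and those of TNFAIP3 at 92.8, 986 and 131, and the points of each of the 5 subunit genes lie close together.

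The promoter windows of 3 genes are shown, because they belong to the gene with the widest spread, ICAM1, and to 2 inhibitor genes with different patterns, TNFAIP3 and NFKBIA. Each holds 250 bases before and 50 after the transcription start in RefSeq's annotation of GRCh38.p14, 5′ to 3′ on the gene's strand. Capitals mark matches on either strand to the long κB pattern (GGG, 5 bases of any kind, CC), to the shorter κB form GGAAATTCC, or to the STAT pattern TTCNNNGAA. The windows are chr19:10270870-10271169 on the plus strand for ICAM1, chr6:137867009-137867308 on the plus strand for TNFAIP3 and chr14:35404700-35404999 on the minus strand for NFKBIA.
ICAM1: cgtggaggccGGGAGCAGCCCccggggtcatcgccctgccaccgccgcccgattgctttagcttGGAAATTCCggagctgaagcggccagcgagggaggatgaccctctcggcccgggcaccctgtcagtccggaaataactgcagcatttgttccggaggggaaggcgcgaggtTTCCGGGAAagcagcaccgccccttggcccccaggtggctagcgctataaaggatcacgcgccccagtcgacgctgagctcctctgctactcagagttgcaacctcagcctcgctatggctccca
TNFAIP3: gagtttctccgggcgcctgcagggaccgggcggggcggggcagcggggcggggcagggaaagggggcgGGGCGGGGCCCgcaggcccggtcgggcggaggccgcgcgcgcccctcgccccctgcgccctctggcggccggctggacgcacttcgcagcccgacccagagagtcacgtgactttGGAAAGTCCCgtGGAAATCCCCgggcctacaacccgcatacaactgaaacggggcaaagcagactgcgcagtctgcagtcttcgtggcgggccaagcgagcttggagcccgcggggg
NFKBIA: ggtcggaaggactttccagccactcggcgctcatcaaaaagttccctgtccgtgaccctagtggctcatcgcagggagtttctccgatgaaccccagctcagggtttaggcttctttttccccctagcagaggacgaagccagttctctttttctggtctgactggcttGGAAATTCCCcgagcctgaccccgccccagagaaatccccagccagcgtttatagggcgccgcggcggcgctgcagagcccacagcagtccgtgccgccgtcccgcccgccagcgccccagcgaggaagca

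In the ICAM1 window the first run in capitals is a pair of overlapping matches to the long κB pattern, the second is the short κB form at position -186 from the start, and the third is a STAT match at -75. In the TNFAIP3 window the long κB pattern matched at 4 positions, of which those at -67 and -55 lie side by side on the minus strand. In NFKBIA the long and the short form overlap at -81. RefSeq windows were found for 8 of the 10 genes, 12 windows in all since some genes have several starts. The long pattern is loose: it matched in all 12 and in 58.7% of all 35116 windows in the table. The short form matched in windows of 4 genes, ICAM1, NFKB1, NFKBIA and REL, and in 0.461% of all windows. It was added after the windows had been read, so its matches in these genes are not independent of that choice. The STAT pattern matched in windows of ICAM1 and RELA and in 7.66% of all windows. A match is a description of letters and does not show that a factor binds there.

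Among the subunits, NFKB1, whose product is the precursor of a DNA-binding partner of RELA, had intensities of 515 in HT-29 with IFN-γ, 371 in MDA-MB-436 and 463 in MCF10A. RELA, the main activating subunit of the canonical pathway, was at 1382, 1059 and 859.9 in the same order of lines. Both were highest in HT-29, by 1.11-fold and 1.61-fold over MCF10A. NFKB1 was lower in MDA-MB-436 cells than in MCF10A by 1.25-fold, and RELA was higher there by 1.23-fold.

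NFKB2, whose product is the precursor of the partner of RELB in the noncanonical pathway, was at 184 in HT-29 with IFN-γ, 285 in MDA-MB-436 and 136 in MCF10A. It was 2.09-fold higher in MDA-MB-436 cells than in MCF10A, the only subunit gene past 2-fold in any comparison, and median centring of the arrays brought its log2 difference to 0.96, just under 2-fold. RELB was at 129, 100.5 and 77.2, and was 1.68-fold higher in IFN-γ-treated HT-29 than in MCF10A. RELB in MDA-MB-436 and MCF10A stayed below 101, the highest value of any olfactory receptor gene, and the order of these lines is uncertain. REL, which encodes a subunit best known from lymphocytes, was at 133, 211 and 142, highest in MDA-MB-436 by 1.49-fold over MCF10A.

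A difference between 2 genes within the same arrays does not change when an array is centred, though it can under quantile normalization. NFKB2 moved apart from NFKB1 by a log2 difference of 1.38 in MDA-MB-436 against MCF10A and by 0.28 in HT-29 with IFN-γ against MCF10A. REL minus RELA gave 0.27 and -0.78 in these comparisons, and quantile normalization brought the first to 0.08.

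The inhibitor genes did not move together. NFKBIA, which encodes IκBα, was at 545 in HT-29 with IFN-γ, 1168 in MDA-MB-436 and 1212 in MCF10A. It was 2.14-fold lower in IFN-γ-treated HT-29 than in MDA-MB-436 and 2.23-fold lower than in MCF10A. The 2 mammary lines differed by 1.04-fold, and the sign of that difference turned under quantile normalization and under centring on the 75th percentile.

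NFKBIE, which encodes IκBε, was at 174 in HT-29 with IFN-γ, 149 in MDA-MB-436 and 114 in MCF10A, at most 1.52-fold apart. TNFAIP3 was at 92.8 in HT-29 with IFN-γ, 986 in MDA-MB-436 and 131 in MCF10A. A single array was thus high for TNFAIP3, and the HT-29 value lies under the highest olfactory receptor value. HT-29 with IFN-γ and MCF10A differed by 1.41-fold, with HT-29 lower. Relative to NFKBIA, TNFAIP3 was higher by a log2 difference of 2.97 in MDA-MB-436 against MCF10A and by 0.66 in HT-29 with IFN-γ against MCF10A.

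ICAM1 was at 2569 in HT-29 with IFN-γ, 1049.9 in MDA-MB-436 and 74.9 in MCF10A. Both tumor lines were high and MCF10A was low. The MCF10A value is above the background but below that highest olfactory receptor value. With values under that level set to it, ICAM1 was 25.5-fold higher in IFN-γ-treated HT-29 and 10.4-fold higher in MDA-MB-436 cells than in MCF10A. The 2 tumor lines were 2.45-fold apart, with HT-29 with IFN-γ higher, and quantile normalization brought this log2 difference from 1.29 down to 0.94.

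TNFAIP3 and ICAM1 were both high in MDA-MB-436, and only ICAM1 of the pair was high in HT-29 with IFN-γ. Relative to TNFAIP3, ICAM1 was higher by a log2 difference of 0.89 in MDA-MB-436 against MCF10A and by 5.59 in HT-29 with IFN-γ against MCF10A.

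**Figure D2:**
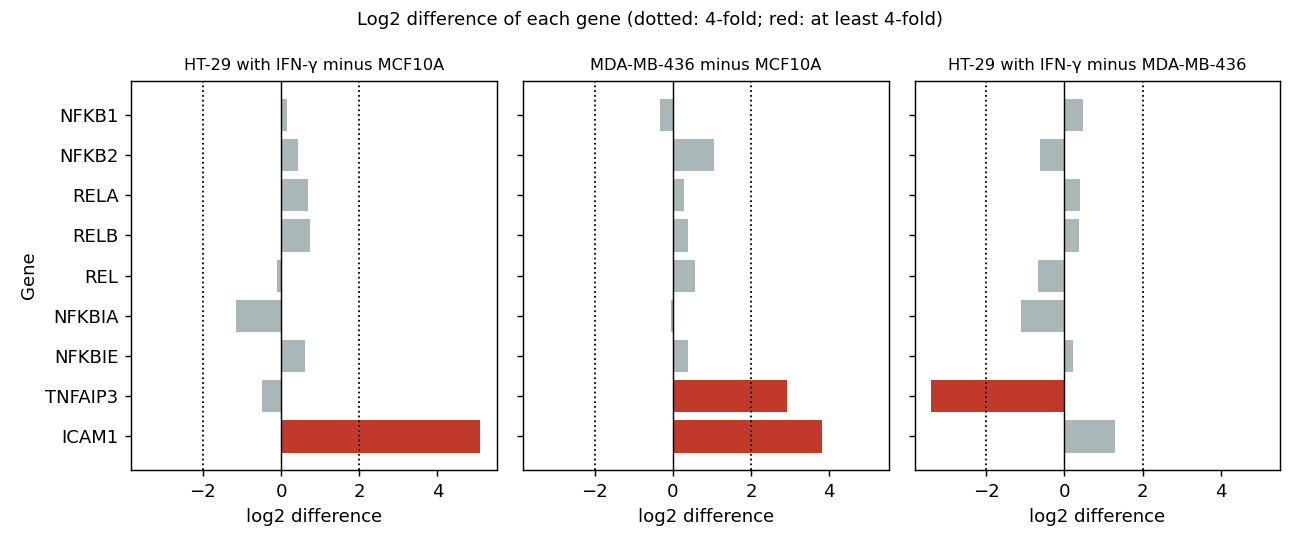
Log2 difference of each of the 9 genes in HT-29 with IFN-γ minus MCF10A, MDA-MB-436 minus MCF10A and HT-29 with IFN-γ minus MDA-MB-436, with dotted lines at 4-fold and red bars for genes past it. Only ICAM1 (5.10) passes on the left, TNFAIP3 (2.92) and ICAM1 (3.81) in the middle and TNFAIP3 (-3.41) on the right.

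Across the 3 lines, the fold between the highest and the lowest array had a median of 1.68 over the 9 genes and of 1.89 over the 10709 genes above background in at least 1 array. A fold of 4 or more was seen for 2 of the 9 genes and for 18.0% of those genes. The spread of the group as a whole was near that of other genes.

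Pattern likeness was measured as the Euclidean distance between the 3 log2 intensities of 2 genes, each centred on the gene's mean. For ICAM1, 7 of 10708 genes lay within a distance of 0.5. Nearest was UBE2L6, which encodes an enzyme that conjugates the interferon-induced modifier ISG15, at 2207 in HT-29 with IFN-γ, 801 in MDA-MB-436 and 78.2 in MCF10A. DDIT3, a stress-induced transcription factor gene, followed at 1511, 781 and 60.1, and then PABIR3, the cathepsin gene CTSS and the sulfate donor synthesis gene PAPSS2, at distances of 0.41, 0.44 and 0.45. These last 3 were under background in MCF10A, at 11.9, 13.2 and 22.2, so their distances are uncertain.

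For TNFAIP3, 64 genes lay within 0.5. The nearest were TEX15, the cadherin gene CDH11, ZNF132, the sulfotransferase gene TPST1 and the phosphodiesterase gene ENPP1, with distances of 0.09 to 0.20. CDH11 was at 14.0 in HT-29 with IFN-γ, 140 in MDA-MB-436 and 18.0 in MCF10A. All 5 were under background in HT-29 and 4 of them also in MCF10A, so the likeness rests mostly on the MDA-MB-436 array. NFKB1, at the other end, had 3451 genes within 0.5, or 32.2%, with H4C6, SLC25A48 and KCTD10 the nearest. For the other members the share within 0.5 was between 7.89% for NFKBIA and 23.8% for NFKBIE. Over 3 arrays such distances separate few patterns.

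Among the kinases and adaptors that lead to NF-κB, most genes were less than 4-fold apart. Of 21 measured genes on that list, 2 were higher in IFN-γ-treated HT-29 than in MCF10A and 0 lower, and 3 were higher in MDA-MB-436 cells than in MCF10A and 0 lower, where 6.14% and 5.10% of all genes above background were higher. The IKK kinase gene CHUK was at 326 in HT-29 with IFN-γ, 176 in MDA-MB-436 and 262 in MCF10A. The other IKK kinase gene, IKBKB, was at 76.3, 139 and 241, 3.16-fold lower in IFN-γ-treated HT-29 than in MCF10A. Both IKK genes were named after their values had been seen.

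IRAK2, a kinase gene of the interleukin 1 and Toll-like receptor pathway, was at 287 in HT-29 with IFN-γ, 595 in MDA-MB-436 and 48.3 in MCF10A. It was 5.94-fold and 12.3-fold higher than in MCF10A. MAP3K8, another kinase gene of these pathways, was at 238 in HT-29 with IFN-γ, 264 in MDA-MB-436 and 33.2 in MCF10A, 7.19-fold and 7.95-fold higher. The adaptor gene TRAF1 was at 23.7, 97.5 and 20.5, in MDA-MB-436 higher by at least 3.26-fold, since both other arrays were under background.

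The next list held other IκB proteins, feedback inhibitors and related regulators, not all of them inhibitors of NF-κB. Of its 19 measured genes, 1 was higher and 0 lower in IFN-γ-treated HT-29 than in MCF10A (6.14% and 4.96% of all genes). In MDA-MB-436 against MCF10A 1 was higher and 0 lower (5.10% and 2.81%). RBCK1, a subunit of the linear ubiquitin chain ligase and neither an IκB gene nor a feedback inhibitor, was at 1612 in HT-29 with IFN-γ, 396 in MDA-MB-436 and 245 in MCF10A. It was 6.59-fold higher in IFN-γ-treated HT-29 than in MCF10A and 4.07-fold higher than in MDA-MB-436. IRAK3, a negative regulator of Toll-like receptor signalling, was at 2.45, 50.5 and 2.29, in MDA-MB-436 higher by at least 1.69-fold. TNIP3, which encodes a protein that binds the TNFAIP3 product, was at 7.39, 33.2 and 21.2, above background only in MDA-MB-436 and by little. In HT-29 with IFN-γ against MDA-MB-436, RBCK1 was the 1 gene higher, and TNIP3 and IRAK3 were the 2 lower (5.76% and 6.41% of all genes). With values under background set to it, 0 were lower.

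The receptor list had 19 measured genes, of which 12 had a brighter array above background. In HT-29 with IFN-γ against MCF10A 2 were higher and 1 lower, and in MDA-MB-436 against MCF10A 1 was higher and 0 lower. The shares over all genes were 6.14% higher and 4.96% lower in the first comparison and 5.10% and 2.81% in the second. With values under background set to it, 1 was higher and 0 lower in the first comparison, and 0 were higher and 0 lower in the second. TLR3, a receptor for double-stranded RNA, was at 952 in HT-29 with IFN-γ, 156 in MDA-MB-436 and 159 in MCF10A, 5.99-fold higher in IFN-γ-treated HT-29 than in MCF10A. TLR4, TLR6 and the interleukin 1 receptor gene IL1R1 reached at most 87.8 in any array, under the highest olfactory receptor value.

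Some ligand genes were higher and others lower. Of 13 measured genes, 9 of them above background in the first comparison and 8 in the second, 3 were higher and 3 lower in IFN-γ-treated HT-29 than in MCF10A, and 1 was higher and 2 lower in MDA-MB-436 cells than in MCF10A. The shares over all genes were 6.14% higher and 4.96% lower in the first comparison and 5.10% and 2.81% in the second. The TNF gene itself, named though not past 4-fold, was under background in all 3 lines, at 19.7 in HT-29 with IFN-γ, 16.9 in MDA-MB-436 and 11.4 in MCF10A.

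IL1A and IL1B, the interleukin 1 genes, were higher in both mammary lines than in HT-29 with IFN-γ. IL1A was at 26.5 in HT-29 with IFN-γ, 1933 in MDA-MB-436 and 1416 in MCF10A, and was at least 47.3-fold lower in IFN-γ-treated HT-29 than in MCF10A. IL1B was at 14.4, 1277 and 113, 11.3-fold higher in MDA-MB-436 cells than in MCF10A and at least 42.7-fold lower in IFN-γ-treated HT-29 than in MDA-MB-436. IL1B and TNFAIP3 thus shared their highest array. IL18, another cytokine gene of the interleukin 1 family, was at 99.4, 105 and 1243, highest in MCF10A.

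The TNF family ligands counted as higher had their highest values in HT-29 with IFN-γ. TNFSF10, which encodes the death ligand TRAIL, was at 2059 in HT-29 with IFN-γ, 12.0 in MDA-MB-436 and 60.9 in MCF10A, 33.8-fold higher in IFN-γ-treated HT-29 than in MCF10A. TNFSF15 was at 901, 16.7 and 57.7, and the B cell survival factor gene TNFSF13B at 154, 9.13 and 14.6.

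Among 30 measured textbook target genes of NF-κB other than ICAM1 and the feedback genes, 15 were higher and 0 lower in MDA-MB-436 against MCF10A. Over all genes above background the shares were 5.10% higher and 2.81% lower. Their median log2 difference was 2.41, taken over the 25 above background. In HT-29 with IFN-γ against MCF10A 7 were higher and 3 lower (6.14% and 4.96% of all genes), with a median of 1.15 over 22. IRF1, 1 of the 7, is also on the list of IFN-γ signalling genes. In HT-29 with IFN-γ against MDA-MB-436 3 were higher and 8 lower (5.76% and 6.41% of all genes). All 7 lists were chosen with earlier results of these data known. Setting their counts beside the shares over all genes is therefore not an independent comparison. The counts of 15 and 7 were the same under the 3 other scalings and with values under background set to it. At a fold of 8 they were 8 and 5, and at a fold of 2 they were 16 and 13. With 16 added to the intensities before log2 they were 13 and 7.

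Some of these targets were high in MDA-MB-436, where TNFAIP3 was high. The chemokine gene CCL2 was at 18.6 in HT-29 with IFN-γ, 1172 in MDA-MB-436 and 20.9 in MCF10A, higher by at least 39.2-fold in MDA-MB-436 cells than in MCF10A. The cytokine gene IL6 was at 9.09, 378 and 7.62, at least 12.7-fold higher. TNFAIP6, which encodes a hyaluronan-binding protein, was at 16.3, 761 and 12.3, and PTX3, a soluble pattern recognition molecule, at 6.67, 932 and 45.5. For all 4 the other arrays were under background, except PTX3 in MCF10A.

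Others were high in HT-29 with IFN-γ. CX3CL1, a membrane-bound chemokine gene, was at 1073 in HT-29 with IFN-γ, 20.4 in MDA-MB-436 and 30.0 in MCF10A, 35.8-fold higher in IFN-γ-treated HT-29 than in MCF10A, whose value sits at the background. CCL5 was at 287, 1367 and 28.8, high in both tumor lines. Chosen after their values were seen, the complement gene CFB was at 563, 374 and 23.4 and TNFAIP2 at 656, 531 and 86.1, in the same order of lines as ICAM1. The complement gene C3 went another way, at 71.1 in HT-29 with IFN-γ, 1948 in MDA-MB-436 and 1861 in MCF10A.

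**Figure D3:**
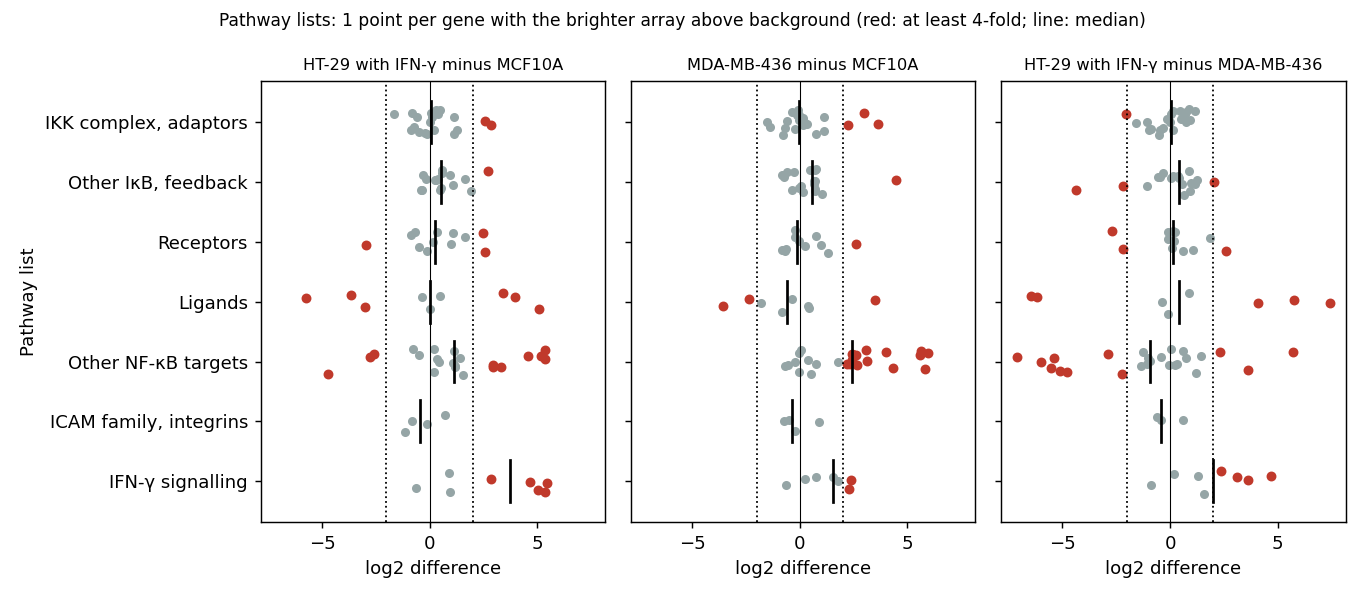
Log2 difference of each gene on the 7 pathway lists whose brighter array was above background, for the 3 comparisons, with red points for genes at least 4-fold apart and a black line at each list's median. The NF-κB target list has 15 red points on the higher side in MDA-MB-436 minus MCF10A, and the IKK list is centred near 0 in all 3 panels.

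Relatives of ICAM1 and leukocyte integrins were mostly at or under background. Of 7 measured genes on that list, 3 or 4 had a brighter array above background in each comparison and 0 were 4-fold apart. Over all genes above background, 2.81% to 6.41% were counted in each direction, so 0 among so few genes says little. ICAM3, named after its values had been seen, was at 97.3 in HT-29 with IFN-γ, 131 in MDA-MB-436 and 217 in MCF10A, highest in MCF10A.

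Genes of IFN-γ signalling were measured beside ICAM1. Of 8 measured genes, 5 were higher and 0 lower in IFN-γ-treated HT-29 than in MCF10A, where 6.14% of all genes above background were higher and 4.96% lower. IRF1 was counted on the NF-κB target list too, so the 2 lists are not separate. The transcription factor gene IRF1 was at 3961 in HT-29 with IFN-γ, 326 in MDA-MB-436 and 94.9 in MCF10A. CIITA, the coactivator of HLA class II genes, was at 496, 19.4 and 14.9, SOCS1, a feedback inhibitor of cytokine receptors, at 211, 40.7 and 8.29, and JAK2, a kinase gene of cytokine receptors, at 405, 163 and 56.5. IRF8, an interferon-inducible transcription factor gene, was at 263, 30.6 and 5.88. IRF1, JAK2, IRF8 and SOCS1 had the same order of lines as ICAM1, with IRF8 and SOCS1 under background in MCF10A. CIITA was also highest in HT-29, and its values in the mammary lines were both under background and have no order. IRF8 and SOCS1 were counted as higher in MDA-MB-436 cells than in MCF10A too, but only by at least 1.02-fold and at least 1.36-fold once the MCF10A array is taken at background.

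**Figure D4:**
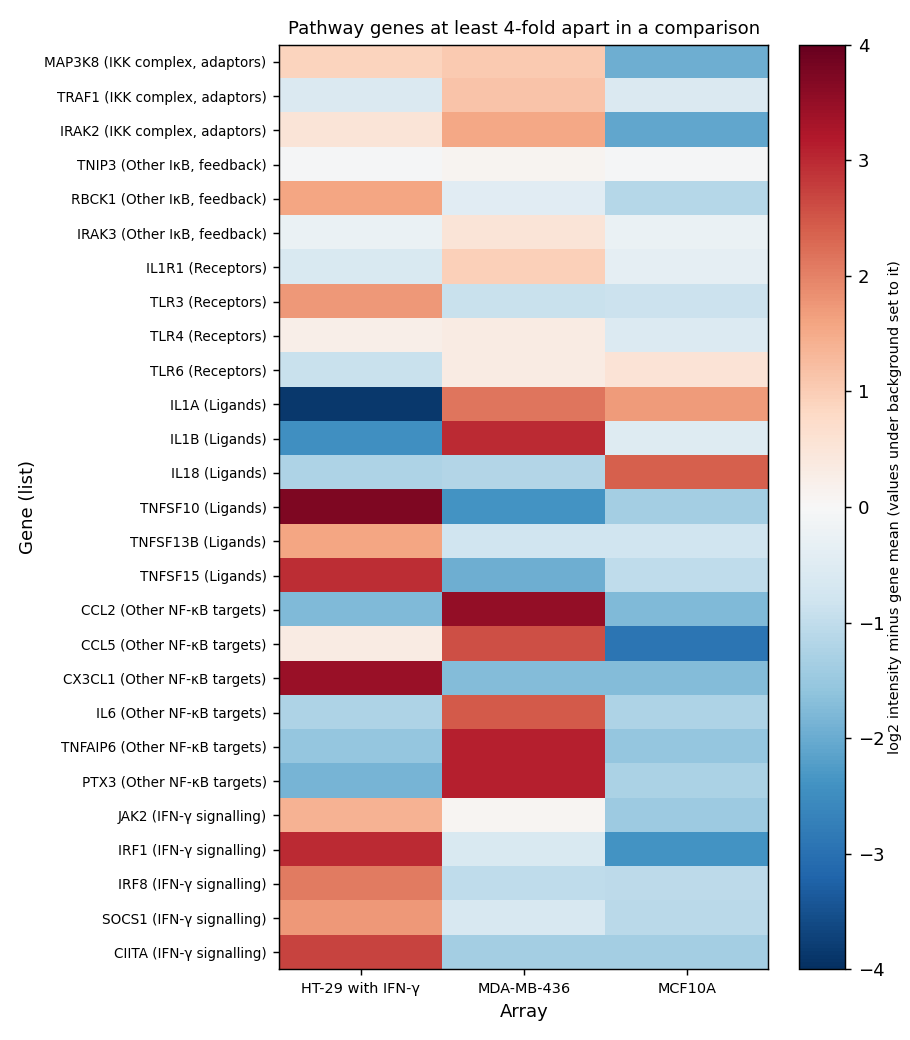
Log2 intensity minus the gene's mean, with values under background set to it, for the named pathway genes at least 4-fold apart in a comparison, in HT-29 with IFN-γ, MDA-MB-436 and MCF10A. CCL2, IL6, TNFAIP6 and PTX3 are high in the MDA-MB-436 column, and TNFSF10, CX3CL1, IRF1 and CIITA in the HT-29 column.

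The arrays had median intensities of 75.9 in HT-29 with IFN-γ, 81.0 in MDA-MB-436 and 75.1 in MCF10A over 18708 clusters, and GAPDH and ACTB differed by at most 1.08-fold and 1.07-fold. Colon epithelial markers were above background in HT-29 for 5 of 6 genes and in the mammary lines for 0. Of 3 measured basal mammary markers, 2 were above background in HT-29 with IFN-γ, 0 in MDA-MB-436 and 3 in MCF10A. Of 3 general epithelial markers, 3 were above background in HT-29 with IFN-γ, 1 in MDA-MB-436 and 3 in MCF10A, and of 5 mesenchymal markers 0, 5 and 4. Leukocytes also use NF-κB and ICAM1, and 3 of 11 leukocyte markers were above background in HT-29 with IFN-γ, 4 in MDA-MB-436 and 2 in MCF10A. Their summed intensity was 526, 1638 and 562, largely from CD68 at 314, 1203 and 294. The pan-leukocyte gene PTPRC was under background at 3.72, 4.16 and 3.05, and no marker was at 0.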

How the data were processed

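Total RNA of 3 cell lines was labelled with biotin and hybridised to exon arrays, 1 array per line, per the labels' protocols. As deposited, each of 18708 transcript clusters has 1 linear intensity per array. How the authors summarised, background-corrected and scaled the values is not given in the sources used here. Genome build hg19 is listed per the submitters' processing notes. Samples were grouped by the submitters' labels.

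Gene names came from the platform annotation and were updated by gene identifier with RefSeq's GRCh38.p14 table: 17608 had a symbol, 14733 a single symbol (14705 matched by identifier), 2875 several and 1100 none here. The cluster with the highest mean was kept for each of 14410 genes. Intensities were log2 transformed and subtracted between arrays. If the dimmer of both arrays lay under background, the fold was taken against the background and is written "at least". There was no test, and precision is limited by the number of arrays. Probes of related genes can share signal.

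The 10 genes, the 7 pathway lists and the tests were chosen with earlier results of these data known. All members were named, plus up to 6 genes per list with the largest differences among those past 4-fold, and the 5 nearest genes by pattern. Exceptions are stated beside them. The counting step was tested on simulated data. Alternatives were quantile normalization, median and 75th percentile centring, a background at the 99th percentile, no filter, values under background set to it, folds of 2 and 8, 16 added before log2 and, for genes with several clusters, their median. The work used matplotlib 3.10.9, pandas 2.3.3 and numpy 2.4.6 under Python 3.11.15.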

Additional observations from a re-analysis of the deposited data

How the results depend on the processing

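The counts of members at least 4-fold apart kept their value or stayed within 1.5 times of it in 62 of 66 recomputations. The lowest member value was 74.9, above the background at the 99th percentile (60.6). That background, no filter and values under background set to it could therefore not change these counts, and their agreement carries no information. The 4 exceptions changed the fold itself. At a fold of 2, 1 gene was lower in IFN-γ-treated HT-29 than in MCF10A, and 1 was higher and 2 lower in IFN-γ-treated HT-29 than in MDA-MB-436. At a fold of 8, 1 gene was higher in MDA-MB-436 cells than in MCF10A. Setting values under the highest olfactory receptor intensity to it was chosen after seeing the data and changed none of the 6 counts. All 162 recomputed log2 differences of members moved by less than 1 SD of the olfactory receptor genes in that comparison (0.758 to 0.800), used because there are no replicates. That SD comes from genes with a median intensity of 5.92, far dimmer than the members, and may be too wide for them. Centring shifts every gene by 1 constant, at most 0.184 in size here, and so could not reach it. Setting values under background to it could change no member, since all members lay above background. Of 420 recomputed counts on the pathway lists, 63 moved by over 1.5 times, 44 to smaller and 19 to larger values, 31 of them with a fold of 2 or 8. Setting values under background to it made 9 list counts smaller, and in MDA-MB-436 against MCF10A the IFN-γ signalling count was 0 with it, against 2. Median centring shifted all genes by -0.11 and 75th percentile centring by 0.18 on the log2 scale in MDA-MB-436 minus MCF10A. No paired analysis was possible because each group has 1 array.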

Other observations

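Genes next to ICAM1 and TNFAIP3 were looked up by their order in RefSeq's GRCh38.p14 table after the values of both genes were seen. Of the 6 nearest measured genes around ICAM1 on chromosome 19, 0 were at least 4-fold apart in any comparison. Over all genes above background in at least 1 array the share was 18.0%, so counts among 6 neighbours say little. ICAM4, which follows ICAM1, was under background in all 3 lines, at 20.1 in HT-29 with IFN-γ, 7.15 in MDA-MB-436 and 7.60 in MCF10A. MRPL4, a mitochondrial ribosomal protein gene that precedes ICAM1, was at 215, 208 and 526. Around TNFAIP3 on chromosome 6, 1 of 6 was at least 4-fold apart: ARFGEF3, at 189 in HT-29 with IFN-γ, 116 in MDA-MB-436 and 40.7 in MCF10A, an order of lines that TNFAIP3 did not have. IL22RA2, OLIG3 and PBOV1 were under background in all 3 lines and could not be counted. IFNGR1, which encodes a chain of the IFN-γ receptor and lies before TNFAIP3, was at 942, 316 and 491.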
